A study of Homo sapiens with 2 samples.

Results

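The aminoacyl-tRNA synthetases were followed through poly(A) RNA sequencing of HepG2 cells, a human hepatocellular carcinoma line. The genes were taken from a list by symbol and comprised 17 cytosolic synthetases, GARS1 and KARS1, which serve both compartments, 16 mitochondrial synthetases, and the scaffold proteins AIMP1 and AIMP2. The 37 listed genes were found among 60623 annotated entries, and all 37 passed the minimum of 10 counts over both libraries, with 162 counts as the lowest value in any library. Cells of the FFA group received 1 mM free fatty acids, a mixture of oleic and palmitic acid carried on albumin, for 24 h. The FFA + 9-cis-RA group received the same fatty acids and 9-cis-RA at 10 μM, an isomer of retinoic acid and ligand of the RXR receptors. The study states that 9-cis-RA also activates the RAR receptors. The study's results describe co-treatment, whereas its methods place the 24 h with 9-cis-RA after the fatty acid treatment. Both groups were labelled WT and Batch 1, and both carried the fatty acid load, so a comparison with cells free of fatty acids was not analysed here. Each group was 1 library, which leaves no replicate error, no test and no p-value. The study compared these groups to describe the transcriptional response to 9-cis-RA in steatotic cells.

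Aminoacyl-tRNA synthetases join each amino acid to its transfer RNA, the step that sets the reading of the genetic code before the ribosome. Mammalian cells keep separate nuclear genes for the cytosolic enzymes and for most of the enzymes imported into mitochondria, where the proteins encoded by mitochondrial DNA are made. Several cytosolic enzymes sit in a multi-synthetase complex held together by AIMP scaffolds. Many cytosolic synthetase genes are known targets of ATF4, the transcription factor of the integrated stress response.

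The FFA library held 60821539 counts and the FFA + 9-cis-RA library 57669670. Counts were scaled with DESeq2 size factors, and each log2 fold change is FFA + 9-cis-RA against FFA after a pseudocount of 1, so that a positive value is a higher level with 9-cis-RA. The 95% interval behind each value covers counting error only and compares these 2 libraries, not the conditions. The retinoid label was checked with CYP26A1, the retinoic acid hydroxylase, at 4 and 709 counts, RARB at 6 and 46 counts, and DHRS3 at 1126 and 1999 counts in FFA and FFA + 9-cis-RA. All 8 hepatocyte markers were present, with 4 higher and 4 lower in FFA + 9-cis-RA, from AFP (log2 fold change -0.99) and ALB (-0.70) to APOB (0.050) and FGB (0.84), whereas 5 of 8 markers of fibroblast, blood and endothelial cells reached the minimum, with 290 counts in FFA and 192 in FFA + 9-cis-RA in all, and PTPRC was at 0 in both. In bulk RNA, a lower level per cell and fewer expressing cells cannot be told apart.

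The sequences below concern a motif linked to ATF4, a known regulator of many of the cytosolic genes. The C/EBP-ATF composite motif, through which ATF4 acts with a C/EBP partner, was searched as TGATGNAA on both strands in RefSeq promoter windows (GRCh38.p14, 250 bases before to 50 after an annotated start). A window was found for 32 of the 37 genes. VARS1, LARS1, YARS1, AARS2 and VARS2 had none. The motif was present for 7 of 16 cytosolic genes, 1 of 14 mitochondrial genes and 4.46% of the 27305 genes with a window. The 30 bases around each match are given 5′ to 3′ on the gene's strand, with the match in capitals.
TARS1 (chr5:33440956-33440985, plus strand): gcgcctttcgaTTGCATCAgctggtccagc
GARS1 (chr7:30594834-30594863, plus strand): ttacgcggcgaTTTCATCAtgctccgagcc
IARS1 (chr9:92293692-92293721, minus strand): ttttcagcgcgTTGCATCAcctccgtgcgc
CARS1 (chr11:3057407-3057436, minus strand): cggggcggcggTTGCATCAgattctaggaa
YARS2 (chr12:32756076-32756105, minus strand): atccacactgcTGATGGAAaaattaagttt
MARS1 (chr12:57488053-57488082, plus strand): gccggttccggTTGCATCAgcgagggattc
AARS1 (chr16:70289675-70289704, minus strand): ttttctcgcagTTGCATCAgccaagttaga
NARS1 (chr18:57621804-57621833, minus strand): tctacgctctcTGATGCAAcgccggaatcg
Of these 8 genes, 6 had C at the free position of the motif (TGATGCAA, or TTGCATCA on the other strand). No match overlapped a match of another motif searched. A match is a description of the letters and neither a bound site nor a cause.

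The 37 genes differed little between the libraries and in both directions. Their median log2 fold change was -0.003, with 18 genes above 0 and 19 below. The median was -0.020 over all 20431 genes compared and 0.0057 over the 11479 protein-coding genes with a mean normalized count of at least 100 (called well-counted below). A change of 0.25 on the log2 scale, which is 1.19-fold, was exceeded upward by 2 of the 37 genes (5.41%), against 18.9% of all genes compared and 12.8% of well-counted genes. It was exceeded downward by 4 of 37 (10.8%), against 26.0% of all genes compared and 15.8% of well-counted genes. No synthetase or scaffold gene passed a log2 change of 1, which 8.28% of all genes compared and 1.59% of well-counted genes passed in either direction. The 6 genes past 0.25 were MARS1 and TARS1, which were higher with 9-cis-RA, and FARS2, SARS2, WARS2 and AIMP1, which were lower.

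**Figure D1:**
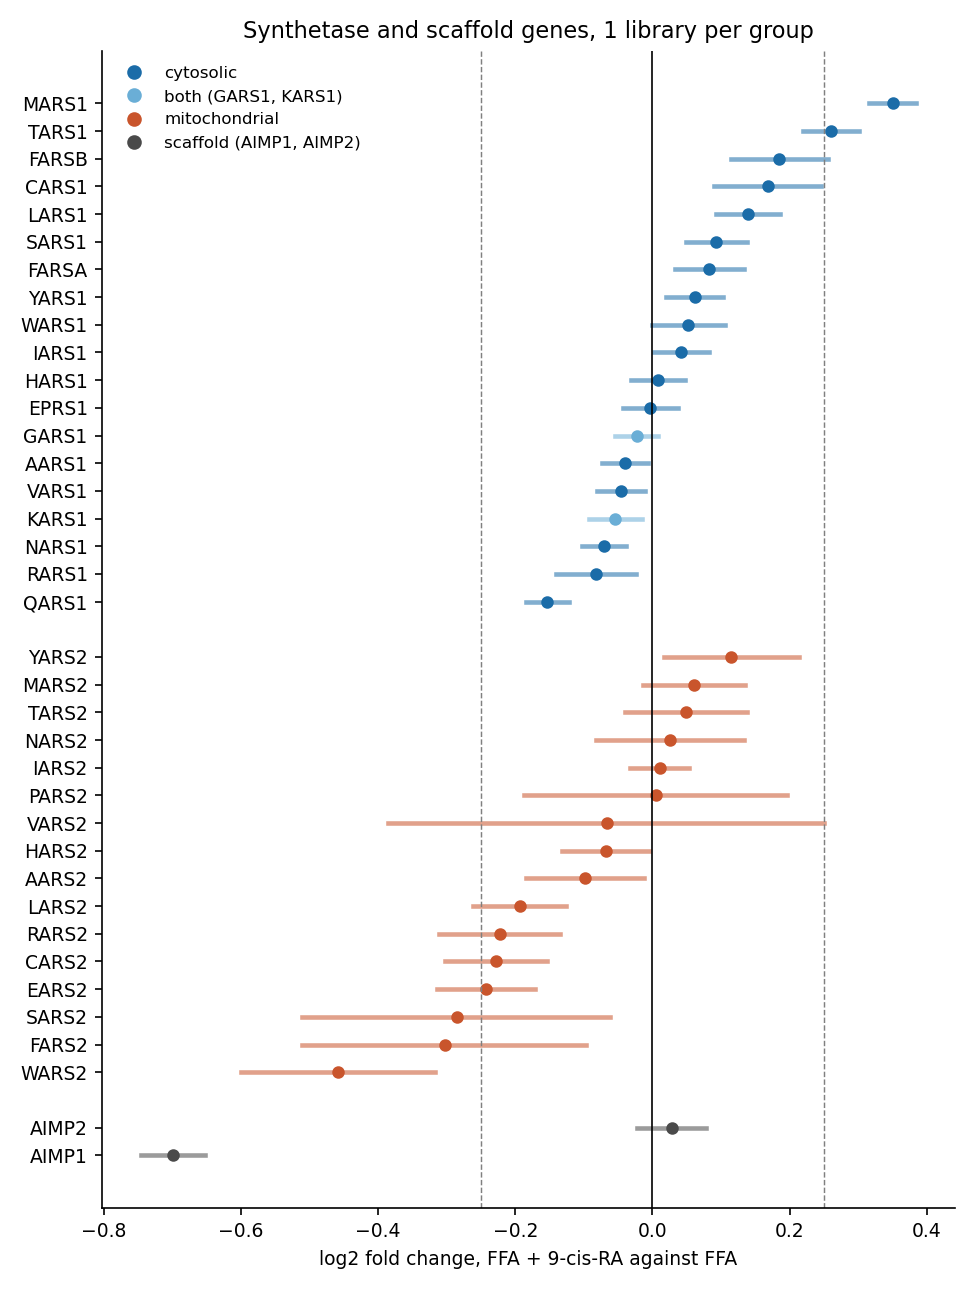
Log2 fold change of each of the 37 genes, FFA + 9-cis-RA against FFA, with genes as rows in their groups, bars for the 95% counting interval, dashed lines at 0.25 and -0.25 and 1 library per group. Values ran from -0.70 for AIMP1 to 0.35 for MARS1, and the cytosolic genes lay around a median of 0.042 and the mitochondrial genes around -0.083, signs that turned for the cytosolic genes once a length trend was removed (-0.0043) and for the mitochondrial genes under TPM scaling (0.0071).

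The cytosolic enzymes, which serve the bulk of protein synthesis, were mostly at or slightly above their level in the FFA library. The median log2 fold change over these 19 genes, GARS1 and KARS1 included, was 0.042, with 11 genes above 0 and 8 below; the median was -0.0043 once a trend with gene length was removed. Past 0.25 lay 2 genes upward (10.5%) and none downward. Of all genes compared, 18.9% passed it upward and 26.0% downward, and of well-counted genes 12.8% and 15.8%. MARS1, the methionyl-tRNA synthetase (chr12:57475445-57517569, plus strand), was counted 12556 times in FFA and 15705 times in FFA + 9-cis-RA, a log2 fold change of 0.35 (interval 0.32 to 0.38). Among well-counted genes, 6.33% had a higher value than MARS1. TARS1, the threonyl-tRNA synthetase (chr5:33440696-33469539, plus strand), had 8850 and 10401 counts and a log2 fold change of 0.26 (0.22 to 0.30). FARSB, the beta chain of the cytosolic phenylalanyl-tRNA synthetase, had 3081 and 3437 counts and a value of 0.19 (0.11 to 0.26). The alpha chain, FARSA, was at 0.083, and the count ratio of the beta to the alpha chain moved by 0.10 on the log2 scale (0.016 to 0.19).

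At the other end of the cytosolic group, QARS1, the glutaminyl-tRNA synthetase, had 17615 counts in FFA and 15540 in FFA + 9-cis-RA, a log2 fold change of -0.15 (-0.18 to -0.12). RARS1, for arginine, had 4916 and 4556 counts and a value of -0.082 (-0.14 to -0.024). NARS1, for asparagine, had 16269 and 15199 counts and a value of -0.071 (-0.10 to -0.039). These lowest cytosolic values were smaller in size than the highest ones, and QARS1 alone of the cytosolic genes below 0 stayed below it under TPM scaling. EPRS1, a fused enzyme that charges glutamate and proline, was nearly level, with 10117 and 9905 counts (-0.003, -0.043 to 0.037). GARS1, the glycyl-tRNA synthetase of both compartments, had 16726 and 16152 counts (-0.023, -0.054 to 0.009). KARS1, the lysyl-tRNA synthetase of both compartments, had 10873 and 10275 counts (-0.054, -0.093 to -0.015). The remaining 10 cytosolic genes lay between -0.046 for VARS1 and 0.17 for CARS1, with AARS1 at -0.040, HARS1 at 0.008, IARS1 at 0.042, WARS1 at 0.052, YARS1 at 0.062, SARS1 at 0.093, FARSA at 0.083 and LARS1 at 0.14.

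The mitochondrial enzymes were lower with 9-cis-RA more often than they were higher. Their median log2 fold change was -0.083, with 6 genes above 0 and 10 below; it was 0.0071 under TPM scaling. Past 0.25 lay 3 of 16 genes downward (18.8%) and none upward, a downward share near the 15.8% of well-counted genes under DESeq2 scaling. That share depends on the setting. CARS2 and EARS2 also passed -0.25 with the length or the expression trend removed, LARS2 with the length trend alone and RARS2 with the expression trend alone. Under TPM scaling WARS2 was the single mitochondrial gene past it. Over all genes compared, 5308 passed it, 5000 and 4975 with these trends removed and 4268 under TPM scaling. WARS2, the mitochondrial tryptophanyl-tRNA synthetase (chr1:119031216-119140671, minus strand), had 986 counts in FFA and 704 in FFA + 9-cis-RA, a log2 fold change of -0.46 (-0.60 to -0.32), and 6.83% of well-counted genes had a lower value. FARS2, for phenylalanine, had 439 and 349 counts and a value of -0.30 (-0.51 to -0.097). SARS2, for serine, had 369 and 297 counts and a value of -0.28 (-0.51 to -0.061). The low counts of FARS2 and SARS2 left intervals that reached to the near side of 0.25, whereas that of WARS2 did not.

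The highest mitochondrial values were small. YARS2, for tyrosine, had 1633 and 1735 counts and a log2 fold change of 0.11 (0.017 to 0.21). MARS2, for methionine, had 2878 and 2944 counts (0.060, -0.014 to 0.13), and TARS2, for threonine, had 2068 and 2099 counts (0.049, -0.039 to 0.14). Only the interval of YARS2 lay above 0. Of the remaining genes, EARS2 for glutamate was at -0.24, CARS2 for cysteine at -0.23, RARS2 for arginine at -0.22, LARS2 for leucine at -0.19, AARS2 for alanine at -0.098, HARS2 for histidine at -0.068 and VARS2 for valine at -0.067, the last pair turning above 0 under TPM scaling. NARS2 at 0.026, IARS2 at 0.010 and PARS2 at 0.005 lay close to 0.

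By counting intervals under DESeq2 scaling, the 2 groups leaned to different sides. Among the 19 cytosolic genes, 9 (47.4%) had an interval above 0 and 6 (31.6%) an interval below 0. Among the 16 mitochondrial genes, 1 (6.25%) had an interval above 0 and 9 (56.3%) an interval below 0. The shares over well-counted genes were 33.3% above 0 and 33.3% below 0. These shares depend on how many reads a gene has, and the mitochondrial genes had fewer. Protein-coding genes in the count range of the mitochondrial synthetases had a median log2 fold change of 0.015, and those in the range of the cytosolic synthetases 0.0041. The difference of the cytosolic and mitochondrial medians was 0.13. It was 0.11 after removal of a trend with gene length, 0.15 after removal of one with expression and 0.14 with GARS1 and KARS1 left out, and the other alternatives, which shift both groups alike or leave these genes untouched, cannot move it.

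The ratio of cytosolic to mitochondrial counts within a library needs no scaling between libraries. Summed over the groups, the 19 cytosolic genes held 187839 counts in FFA and 188420 in FFA + 9-cis-RA, and the 16 mitochondrial genes 38548 and 35692. The ratio went from 4.87 to 5.28, a log2 change of 0.12 (0.093 to 0.14). It was 0.13 with GARS1 and KARS1 left out, 0.14 without IARS2, which alone held 8872 of the mitochondrial counts in FFA, and 0.090 without MARS1. The summed cytosolic counts differed by 0.309% between the libraries and the mitochondrial counts dropped by 7.41%, before scaling. These raw changes include depth, since the FFA + 9-cis-RA library held 57669670 counts against 60821539 in FFA. They therefore do not tell which group carried the change of the ratio.

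The amino acids were then taken one at a time, since the same comparison can be made for each of the 16 with a gene in both groups. The cytosolic to mitochondrial ratio was higher with 9-cis-RA for 13 of 16 amino acids. Its interval was above 0 for 10, below 0 for none and held 0 for 6. No such share was computed over other gene pairs. Among single well-counted genes, 33.3% had an interval above 0 and 33.3% below, so intervals that leave out 0 were common between these libraries. The median log2 change of the ratio was 0.18. Tryptophan had the largest change, from 5.72 counts of WARS1 for each count of WARS2 to 8.14, a log2 change of 0.51 (0.36 to 0.66). For phenylalanine, the summed FARSA and FARSB counts went from 21.2 to 28.4 for each count of FARS2 (0.42, 0.21 to 0.63). For cysteine, CARS1 went from 0.786 to 1.03 for each count of CARS2 (0.40, 0.29 to 0.50). In the tryptophan pair the mitochondrial gene moved and the cytosolic gene was at 0.052, while in the cysteine pair CARS1 was higher and CARS2 lower.

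**Figure D2:**
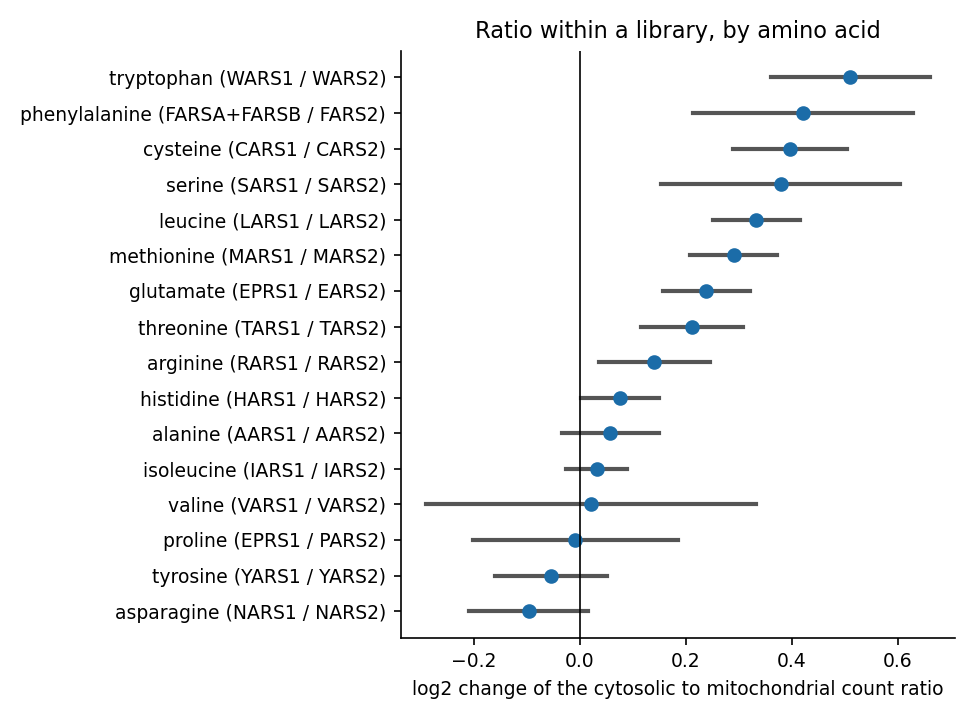
Log2 change of the cytosolic to mitochondrial count ratio for each of 16 amino acids, FFA + 9-cis-RA against FFA, with bars for the 95% counting interval. The points run from 0.51 for tryptophan to -0.096 for asparagine, and 10 of the 16 intervals lie wholly above 0 and none wholly below. The intervals cover counting error only, and no such share was computed over other gene pairs.

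Below the leading amino acids, the change of the ratio was 0.38 for serine, 0.33 for leucine, 0.29 for methionine, 0.24 for glutamate, 0.21 for threonine, 0.14 for arginine and 0.076 for histidine. It was 0.058 for alanine, 0.032 for isoleucine and 0.021 for valine, with intervals that held 0. In the methionine and threonine pairs the cytosolic genes MARS1 and TARS1 carried the difference, since MARS2 and TARS2 were at 0.060 and 0.049. The smallest values were negative. For asparagine the ratio of NARS1 to NARS2 went from 11.71 to 10.96 (-0.096, -0.21 to 0.016), for tyrosine that of YARS1 to YARS2 from 5.66 to 5.46 (-0.053, -0.16 to 0.052), and for proline that of EPRS1 to PARS2 from 22.3 to 22.2 (-0.008, -0.20 to 0.18). The pairs are not independent and are no replicates, because all come from the same 2 libraries. In addition, EPRS1 stands in both the glutamate and the proline pair. The direction of no pair with an interval holding 0 can be read from these libraries.

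The scaffolds of the multi-synthetase complex parted. AIMP1, which also gives rise to the secreted cytokine EMAPII, had the largest change of all 37 genes (chr4:106315544-106349456, plus strand). It was counted 9887 times in FFA and 5975 times in FFA + 9-cis-RA, a log2 fold change of -0.70 (-0.75 to -0.65), and 3.16% of well-counted genes had a lower value. AIMP2, the scaffold that joins the lysyl-tRNA synthetase to the complex, had 6291 and 6293 counts and a value of 0.028 (-0.023 to 0.079). The ratio of AIMP1 to AIMP2 counts went from 1.57 to 0.949, a log2 change of -0.73 (-0.80 to -0.66). Against the summed counts of the 7 listed enzymes of the complex, AIMP1 went from 0.135 to 0.0807 (-0.74, -0.79 to -0.69). The median over those 7 enzymes was -0.003, and over the 12 cytosolic synthetases outside the complex it was 0.057. The third scaffold of the complex, EEF1E1 (AIMP3), was on the list of charging partners and had 2459 and 2094 counts, a value of -0.20 (-0.29 to -0.12). The 2 annotated pseudogenes of AIMP1 had no counts in either library.

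**Figure D3:**
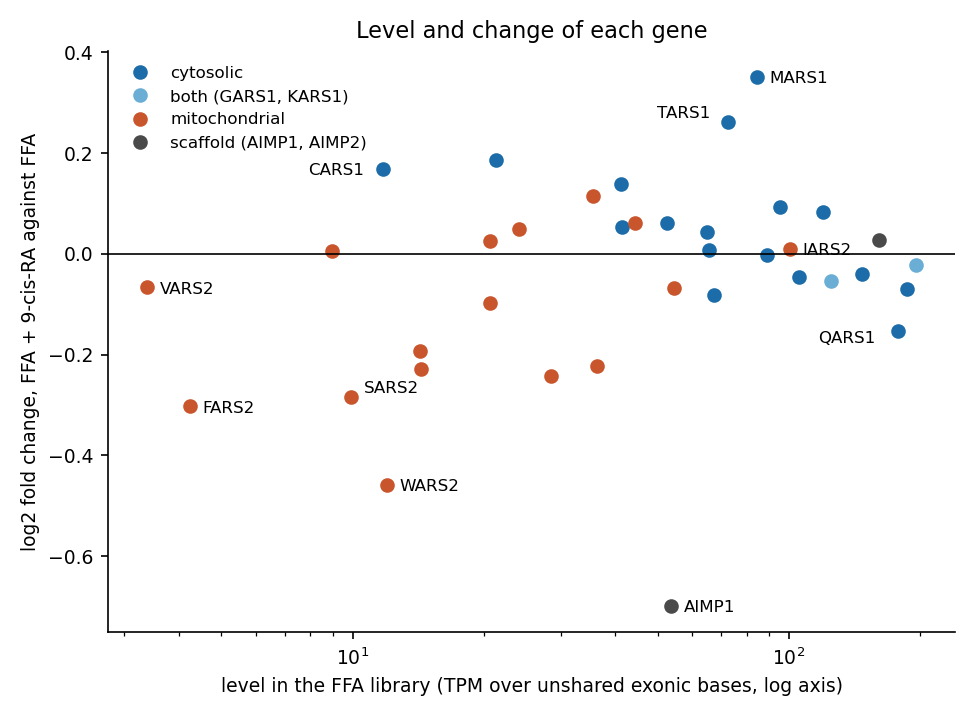
Log2 fold change, FFA + 9-cis-RA against FFA, of each gene against its level in the FFA library in TPM over exonic bases shared with no other gene, on a log axis, with 1 library per group. Cytosolic genes spread from 11.8 to 196 TPM and mitochondrial genes from 3.38 to 100.3 TPM, and AIMP1 lies alone at -0.70.

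Per length, the cytosolic genes were expressed at higher levels than the mitochondrial genes. Levels were computed as TPM, a count per base scaled to a fixed total, over exonic bases that no other gene on the same strand shares, because reads overlapping several genes were not counted. In the FFA library the cytosolic median was 84.3 TPM, from 11.8 for CARS1 to 196 for GARS1. The mitochondrial median was 20.6 TPM, from 3.38 for VARS2 to 100.3 for IARS2. The ratio of the medians was 4.08 in FFA and 4.40 in FFA + 9-cis-RA. The groups overlapped, since 12 mitochondrial genes were above CARS1, but IARS2 was the single mitochondrial gene above the cytosolic median. Within amino acids, the cytosolic level per base was higher in 14 of 16 pairs in FFA and in 15 in FFA + 9-cis-RA, and the pair that crossed was cysteine. The per-base ratio in FFA ranged from 0.646 for isoleucine to 31.2 for valine. The counts of 2 genes rest on part of their exons. VARS2 shared 63.0% of its exonic bases with another gene and SARS2 46.2%, and reads from the shared part were not counted.

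The genes were also grouped by their known link to ATF4. Of the 19 cytosolic genes, the 12 on a list of known ATF4 targets had a median log2 fold change of 0.057, with 8 above 0 and 4 below. The other 7 had -0.046, with 3 above and 4 below. These signs rest on the scaling, since under TPM scaling 18 of the 19 cytosolic genes lay above 0, QARS1 (-0.063) being the exception. The 7 cytosolic genes with the composite motif shown above had a median of 0.042, from -0.071 for NARS1 to 0.35 for MARS1, with 4 above 0 and 3 below. The 9 cytosolic genes with a window and no match had a median of 0.0078, from -0.15 to 0.19, with 5 above 0 and 4 below. MARS1, TARS1, CARS1 and IARS1 were the genes above 0 and GARS1, AARS1 and NARS1 those below, but these sides rest on the scaling: under TPM scaling GARS1 (0.068), AARS1 (0.050) and NARS1 (0.020) lay above 0 as well, GARS1 and AARS1 also turned with total-count scaling, IARS1 turned with the length trend removed, and the interval of GARS1 held 0. Of the 8 genes with the motif, 7 were on the ATF4 list, YARS2 being the exception. The E box CACGTG was found for 5 genes (AIMP2, CARS2, EARS2, IARS1 and MARS2; 8.77% of all genes), the NRF1 core CGCATGCG for MARS2 (2.46%) and the cyclic AMP element TGACGTCA for AIMP2 (2.25%). Direct repeats of AGGTCA, the repeated unit of retinoid receptor elements, were not found in these windows at a gap of 1 base (0.0293% of all genes) or 5 bases (0.00732%).

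The other genes of the integrated stress response gave the wider frame. Of 24 listed genes, 18 were above 0 and 6 below, with a median log2 fold change of 0.13. Past 0.25 lay 10 upward (41.7%, against 18.9% of all genes compared and 12.8% of well-counted genes) and 1 downward (4.17%, against 26.0% and 15.8%). SLC7A5 (0.27), MTHFD2 (0.26) and DDIT4 (0.26) lay just past 0.25 and CEBPB (0.24) just under it. CHAC1 passed it on 34 and 57 counts, and ASNS shares 49.3% of its exonic bases with another gene. These counts of genes were not recomputed under the alternatives. ATF3, a stress-induced transcription factor, had 759 and 1033 counts (0.47, 0.34 to 0.61), and SLC7A11, the cystine transporter, had 4804 and 6457 counts (0.45, 0.40 to 0.51). NUPR1, a stress-induced chromatin protein, had 503 and 354 counts (-0.48, -0.68 to -0.28), and DDIT3, which encodes CHOP, had 3300 and 2767 counts (-0.23, -0.30 to -0.15). ATF4 itself had 40678 and 39858 counts (-0.002). The DDIT3 gene lies opposite MARS1 and overlaps its annotated span by 982 bases, and the pair went in opposite directions in counts made by strand.

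**Figure D4:**
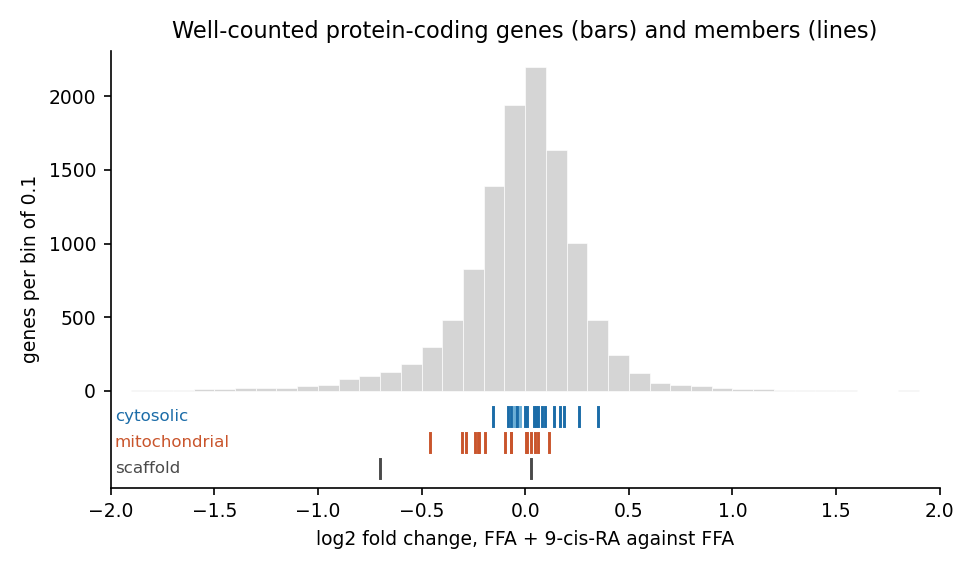
Log2 fold changes, FFA + 9-cis-RA against FFA, of the 11479 well-counted protein-coding genes as a histogram in bins of 0.1, with 20 genes outside the axis and the cytosolic, mitochondrial and scaffold genes as lines under it. The middle 50% of the well-counted genes lay between -0.15 and 0.14, and MARS1, WARS2 and AIMP1 lie outside 0.25 under every alternative run.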

How the data were processed

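RNA was poly(A)-selected and sequenced as stranded paired-end libraries from HepG2 cells, 1 library per group. The authors deposited raw counts of fragments per gene, made with featureCounts version 2.0.1 on the reverse strand (setting 2). Per the labels the build was GRCh38. The aligner and annotation release are not given in the sources used here. Fragments assigned to more than 1 gene or place were left uncounted, so genes with close copies or shared exons are undercounted. Gene symbols were matched for 60295 of 60623 entries, and 58516 were in GENCODE v29.

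Size factors came from DESeq2 version 1.42.0 in R version 4.3.3. Intervals were computed with scipy 1.17.1 and trends with statsmodels 0.14.6 under Python 3.11.15, tables were handled with pandas 2.3.3, and matplotlib 3.10.9 drew the plots. A pseudocount of 1 was added before the log2 fold change, and genes needed 10 counts in the libraries together. Exact 95% intervals (Clopper-Pearson) were computed on each gene's share of counts, and ratios used a normal approximation on the log scale. Intervals cover counting error only. In data simulated for this comparison over 20431 genes, 95.9% of the intervals held the true change. The simulated counts had Poisson error alone and the same size factors. The share therefore checks the computation and cannot speak to variation between libraries or to the scaling. Alternatives were edgeR TMM (version 4.0.16), total-count and TPM scaling, pseudocounts of 0.1 and 5, a minimum of 50 counts or none, protein-coding genes alone, and removal of loess trends (span 0.3) with length or expression.

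In each compartment, the 3 highest and 3 lowest genes were given in full, as were EPRS1, GARS1, KARS1 and the scaffolds, the 3 largest and 3 smallest amino acid pairs, and the 2 highest and 2 lowest of the charging partners, of the elongation factors and of the integrated stress response genes, where either library reached 100 normalized counts. Any gene named beyond these was picked with its value in view. The members and the lists were chosen with earlier results of these data known. The study names DESeq2 for its own comparison, but 1 library per group allowed no model here.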

Additional observations from a re-analysis of the deposited data

How the results depend on the processing

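With 1 library per group no replicate could be left out, and no replicate error stands behind any value. No paired analysis was possible because the result comes from no test. Of 370 recomputed values of the 37 genes, 316 stayed within the counting interval, 54 moved outside it, by at most 0.0903 on the log2 scale, and no gene past 0.25 changed sign. Many of those that stayed could not have moved. A different minimum or protein-coding genes alone leaves each gene's own value untouched, and the pseudocounts hardly alter genes counted this often. AIMP1 ranged from -0.75 to -0.61, WARS2 from -0.48 to -0.37 and MARS1 from 0.31 to 0.44, all past 0.25 throughout, whereas TARS1 (0.23 to 0.35), FARS2 (-0.31 to -0.21) and SARS2 (-0.29 to -0.19) were not.

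The cytosolic median of 0.042 was 0.092 with total-count scaling, -0.0043 with the length trend removed and 0.13 with TPM scaling. The mitochondrial median of -0.083 was 0.0071 with TPM scaling, an alternative chosen after seeing the data, which moved the median of all genes by 0.0900. Genes past 0.25 upward numbered 1 with the length trend removed and 4 under TPM scaling, in place of 2, and downward 7 with the length or the expression trend removed and 2 under TPM scaling, in place of 4. Over all genes, the 3862 past 0.25 upward became 2382 with at least 50 counts, 7793 with no minimum and 2151 among protein-coding genes, and the 5308 downward became 3354, 9524 and 2780. Of genes past 0.25, 57.9% were lower, against 43.9% under TPM and 50.01% under total-count scaling. The cause of these moves was not tested, beyond the change in the number of genes compared. Signs turned for 9 genes under TPM scaling, all within 0.082 of 0. Depth limits VARS2 most, whose interval ran from -0.39 to 0.25 on 173 and 162 counts.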

Other observations

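The 13 charging partners were a mixed list, among them genes that edit, assist or amidate charged tRNAs. They had a median log2 fold change of 0.049, with 7 above 0, 6 below and none past 0.25. Of all genes compared, 18.9% passed 0.25 upward and 26.0% downward, and of well-counted genes 12.8% and 15.8%. The list also held TARS3, a threonyl-tRNA synthetase gene outside the listed synthetases, with 773 counts in FFA and 870 in FFA + 9-cis-RA (0.20, 0.057 to 0.34). AARSD1, an alanyl-tRNA editing protein, had 137 and 156 counts in FFA and FFA + 9-cis-RA (0.21, -0.13 to 0.56), and shares 34.2% of its exonic bases with another gene. PSTK, the kinase of selenocysteine synthesis, had 305 and 347 counts (0.21, -0.012 to 0.44). QRSL1, a subunit of the mitochondrial glutamyl-tRNA amidotransferase, was lowest with 2409 and 2040 counts (-0.21, -0.30 to -0.13), followed by EEF1E1. Of 10 elongation factors, 9 could be compared, with a median of -0.009, 1 past 0.25 upward (TSFM, on 27 and 32 counts) and 2 downward (EEF1A2, on 40 and 22 counts, and EEF1B2). That is 11.1% upward and 22.2% downward, to be read beside the shares over all genes given above. EEF2 had 148803 and 153193 counts (0.070, 0.059 to 0.080) and GFM2, of mitochondria, 1630 and 1655 (0.050, -0.050 to 0.15). EEF1B2, an exchange factor, had 46688 and 37461 counts (-0.29, -0.31 to -0.27) and EEF1A1 595730 and 563845 (-0.052, -0.057 to -0.046). EEF1G was at 0 in both libraries, with 99.7% of its exonic bases shared with another gene.

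By structural class of synthetase, the cytosolic and mitochondrial values overlapped. The class I enzymes had medians of 0.052 over 9 cytosolic genes and -0.19 over 9 mitochondrial genes, and the class II enzymes 0.008 over 9 and -0.068 over 7. Start sites within 1000 bases of a gene on the other strand were annotated for 11 of the 37 genes, which form 10 distinct pairs, HARS1 and HARS2 being neighbours of each other, and 6 of the 10 had the same sign. HARS1 and HARS2, whose starts lie 107 bases apart on opposite strands, were at 0.008 and -0.068. EARS2 was at -0.24 and its neighbour UBFD1, with 5441 and 6355 counts, at 0.25. CARS2 was at -0.23 and its neighbour ING1 at 0.18.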
